A study of Rattus norvegicus with 24 samples.

Results

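The 5p arms of the rat miR-181 family were examined in lung after inhalation of hexanal. The members were found by name in the scanner files: rno-miR-181a-5p, rno-miR-181b-5p, rno-miR-181c-5p and rno-miR-181d-5p, which are 4 of the 719 rat miRNAs on the array and 4 of the 283 that were bright enough to be tested. Hexanal is a volatile aldehyde of indoor air that irritates the airways. Lung RNA came from 24 Fischer-344 rats of 7 to 8 weeks of age, and each rat was measured on its own Agilent array with a single dye. The control group inhaled filtered clean air, and the 3 treated groups inhaled hexanal at 600, 1000 or 1500 ppm. Exposure ran for 5 weeks, with 5 days in each week and 4 h in each day. Each of the 4 groups held 6 rats, 3 males and 3 females. The protocol text of the labels gives the same figures in mg/m3, so ppm serves here as the name of a group. Rats are named by group, sex and the animal number of the labels, and no number ties a rat of one group to a rat of another.

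A miRNA is a short RNA that guides an Argonaute protein to messenger RNAs, mostly through its seed, bases 2 to 8 from the 5′ end, and lowers the output of the paired messengers. The miR-181 family is known from the immune system and from vessels. miR-181a tunes the strength of T cell receptor signalling during thymic selection, and miR-181b in endothelial cells limits entry of NF-κB into the nucleus and so dampens vascular inflammation. In lung RNA the family can come from endothelium, lymphocytes and other cells alike. In such bulk RNA, fewer cells of a type and less RNA per cell cannot be told apart.

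The mature sequences of all 4 members were found in the RefSeq tables (assembly GRCr8). They are shown because the members share a seed and differ behind it, which bears on how the probes and the levels of the members relate. Capitals mark the seed.
rno-miR-181a-5p: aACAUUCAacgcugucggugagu
rno-miR-181b-5p: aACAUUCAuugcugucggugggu
rno-miR-181c-5p: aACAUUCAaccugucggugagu
rno-miR-181d-5p: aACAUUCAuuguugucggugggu

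Of the 693 mature miRNA names in that table, 0 others had the same seed. With positions counted from 1 at the 5′ end of the first-named miRNA, miR-181b differed from miR-181a by A9U, C10U and A21G. miR-181d differed from miR-181a by A9U, C10U, C12U and A21G, and from miR-181b by C12U alone. miR-181c was miR-181a without the G at position 11. By sequence the closest pairs were therefore miR-181a with miR-181c and miR-181b with miR-181d, each 1 difference apart, while miR-181c and miR-181d were 5 differences apart (4 substitutions and 1 gap).

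By position in the genome the pairs were others. The table places the family in 3 clusters, each on the plus strand. miR-181a lies at chr13:52037081-52037103 (Mir181a-1), 182 bases upstream of miR-181b at chr13:52037263-52037285 (Mir181b1), inside the range of the long noncoding gene LOC108352541. A second copy of miR-181a lies at chr3:43025601-43025623 (Mir181a2), and the miR-181b sequence recurs 1079 bases on in the hairpin of Mir181b2, at chr3:43026680-43026702. This cluster lies inside the ranges of Nr6a1, an orphan nuclear receptor, and of the long noncoding gene LOC120101539. miR-181c at chr19:40888314-40888335 (Mir181c) and miR-181d at chr19:40888484-40888506 (Mir181d) start 170 bases apart and overlap 0 other genes of the table. The table holds gene ranges without exons, so none of the loci was assigned to an exon or intron. An array probe reads the mature sequence, so the copies of miR-181a on chr13 and chr3 cannot be told apart, and the same holds for those of miR-181b.

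Each member had 2 probes with 10 spots each, all members were well above background on all 24 arrays, and 0 of their spots were saturated. Levels are given as log2 of the scaled intensity, the brightness after each array was brought to a common 75th percentile. Levels of different members are not set against each other, because probes differ in brightness for the same amount of RNA. The 24 arrays lay on 3 slides, and slide ran with sex and dose. Slide 1 carried males alone: all control and all 600 ppm males, and males 11 and 12 of the 1000 ppm group. Slide 2 carried all control females, female 26 (600 ppm), male 13 (1000 ppm) and all males of the 1500 ppm group. Slide 3 carried the remaining females, of which 2 inhaled 600 ppm, 3 inhaled 1000 ppm and 3 inhaled 1500 ppm. Before scaling, the 75th percentile of brightness ran from 677 to 1226 on slide 1 (median 1096), from 662 to 766 on slide 2 (median 733) and from 772 to 1063 on slide 3 (median 833). Of the markers of lung cells, 5 of 5 epithelial miRNAs of the miR-200 family and its cluster mates and both arms of the endothelial miR-126a were above background on all 24 arrays.

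rno-miR-181a-5p was lower in control males than in control females. It read 10.15, 10.13 and 10.14 in control males 1, 2 and 3, and 10.57, 10.49 and 10.52 in control females 21, 22 and 23, so that the sexes did not overlap. At 600 ppm it read 10.00, 10.26 and 10.37 in males 6, 7 and 8, and 10.66, 10.49 and 10.43 in females 26, 27 and 28. At 1000 ppm it read 10.12, 10.08 and 10.43 in males 11, 12 and 13, and 10.48, 10.38 and 10.42 in females 31, 32 and 33. Within both treated groups the males on slide 1 were the low rats, and male 13, the lone male of its group on slide 2, read as high as the females. At 1500 ppm it read 10.54, 10.50 and 10.75 in males 16, 17 and 18, and 10.38, 10.47 and 10.70 in females 36, 37 and 38, so that the sexes overlapped.

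rno-miR-181b-5p, which shares both clusters with miR-181a, also had a lower mean in males than in females in the control, 600 ppm and 1000 ppm groups, with wider gaps between the means. It read 6.82, 6.79 and 6.77 in the control males and 7.57, 7.41 and 7.47 in the control females, a mean scaled intensity of 111 against 179. At 600 ppm the males read 6.65, 6.89 and 7.08 and the females 7.39, 7.25 and 7.26. At 1000 ppm males 11 and 12 read 6.75 and 6.79, male 13 read 7.30, and the females read 7.34, 7.17 and 7.38. At 1500 ppm, where no rat was on slide 1, the males read 7.30, 7.45 and 7.50 and the females 7.23, 7.22 and 7.43. All 8 arrays of slide 1 lay between 6.65 and 7.08, below all 16 others, which lay between 7.17 and 7.57. The highest rat of slide 1 for both miRNAs, male 8 at 600 ppm, was also the dimmest array of that slide before scaling, at 677. The part of array brightness in these levels was not tested.

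rno-miR-181c-5p varied less and in another order. Its lowest, median and highest levels were 7.15, 7.36 and 7.41 in controls, 7.29, 7.40 and 7.62 at 600 ppm, 7.19, 7.23 and 7.43 at 1000 ppm, and 7.13, 7.37 and 7.47 at 1500 ppm. The control males read 7.34, 7.39 and 7.36 and the control females 7.37, 7.15 and 7.41, so that the sexes overlapped. Female 22 was the lowest control and female 26 at 600 ppm the highest rat of all.

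rno-miR-181d-5p, the cluster mate of miR-181c, had the same lowest control and the same highest rat. Its lowest, median and highest levels were 6.00, 6.24 and 6.36 in controls, 6.13, 6.25 and 6.42 at 600 ppm, 6.00, 6.13 and 6.31 at 1000 ppm, and 5.97, 6.23 and 6.32 at 1500 ppm. Female 22 again read lowest among controls, at 6.00, and female 26 again read highest of all, at 6.42.

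**Figure D1:**
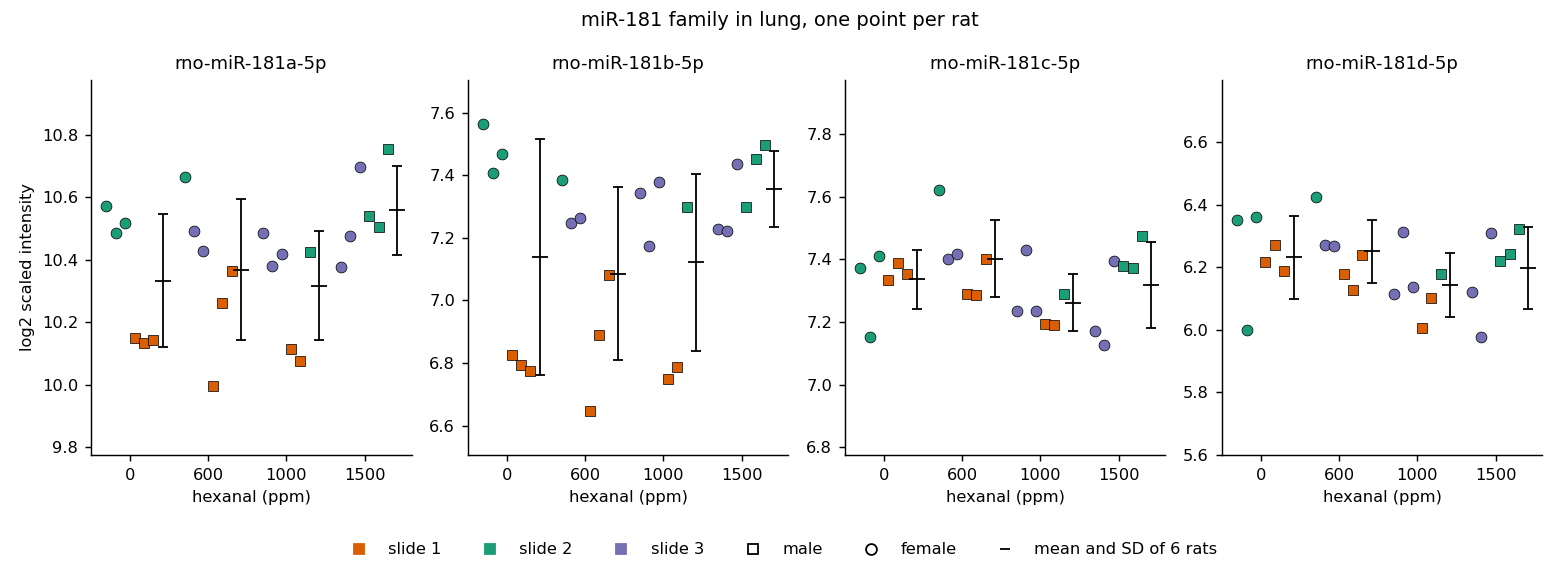
Levels of the 4 members in each rat (y axis, log2 scaled intensity, the same span of 1.2 in each panel) by hexanal group (x axis, ppm, 0 for control), colored by slide and shaped by sex, with the mean and SD of the 6 rats beside each group. For miR-181a and miR-181b the slide 1 arrays form the lower band in the control, 600 ppm and 1000 ppm groups, whereas for miR-181c and miR-181d the 3 slides overlap.

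The first question of the design was whether any dose moved the family. Compared with control in limma, 0 of 4 members passed an adjusted p of 0.05 at 600, 1000 or 1500 ppm, by the F test over all doses or by the trend with dose. Over all 283 miRNAs tested the count called was also 0 in each of these comparisons, which is 0% of them. At an unadjusted p under 0.05, 5, 17 and 26 of the 283 passed at 600, 1000 and 1500 ppm. The largest estimates of the members were at 1500 ppm. miR-181a was 0.22 ± 0.11 higher than control on the log2 scale (SE, n = 6 per group; adjusted p = 0.498) with a 95% interval from 0.00 to 0.45, and all 6 treated rats lay above the control mean while the groups overlapped. miR-181b was 0.22 ± 0.16 higher (adjusted p = 0.543) with an interval from -0.10 to 0.54, again with 6 of 6 rats above the control mean and overlapping groups. The control mean took in 3 males on slide 1, the slide with the lowest means of both miRNAs, where no 1500 ppm rat was. Control females, on slide 2, had means of 10.52 and 7.48 for miR-181a and miR-181b, against 10.56 and 7.36 at 1500 ppm. For these counts of 6 of 6, dose and slide cannot be told apart. miR-181c and miR-181d differed from control by -0.02 ± 0.07 and -0.03 ± 0.07 (adjusted p = 0.951 and 0.854), with intervals from -0.16 to 0.12 and from -0.18 to 0.11. Over all miRNAs tested the median difference at 1500 ppm was 0.00.

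At the lower doses the 4 estimates lay between -0.05 and 0.07 at 600 ppm and between -0.09 and -0.02 at 1000 ppm, with adjusted p of 0.901 or more. In the order of group means, no neighboring groups of any member stood further apart than the largest SD within its groups. The widest gap was 0.22 for miR-181b, between 1500 ppm and control, against an SD of 0.38 among controls. When slide entered the fit as a block, the estimates at 1500 ppm became 0.08 ± 0.07 for miR-181a and -0.02 ± 0.07 for miR-181b, and the intervals narrowed to between -0.06 and 0.21 and between -0.17 and 0.12. The estimate of miR-181b changed sign with the block. In the deposited series table, which is not scaled between arrays, the estimates at 1500 ppm were -0.03 for miR-181a and -0.05 for miR-181b, where the median over all miRNAs stood at -0.27.

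Rats of 1 slide and 1 sex gave the dose comparisons that neither factor touches. Among males of slide 1, 600 ppm against control (n = 3 and 3) gave 0.07 ± 0.10 for miR-181a, 0.08 ± 0.11 for miR-181b, -0.03 ± 0.05 for miR-181c and -0.05 ± 0.05 for miR-181d (limma, adjusted p of 0.940 or more). Males at 1000 ppm against control males on that slide (n = 2 and 3) gave -0.05 ± 0.03 and -0.03 ± 0.04 for miR-181a and miR-181b, and -0.17 ± 0.04 and -0.17 ± 0.05 for miR-181c and miR-181d (adjusted p = 0.524 and 0.645 for the last 2). Among females of slide 3, 1500 ppm against 1000 ppm (n = 3 and 3) gave 0.09 ± 0.09, -0.00 ± 0.09, -0.07 ± 0.10 and -0.05 ± 0.11 for miR-181a to miR-181d (adjusted p of 0.751 or more). The other comparisons of this kind were against 600 ppm. Males of slide 1 at 1000 ppm (n = 2 and 3) differed by -0.11 ± 0.12, -0.11 ± 0.14, -0.14 ± 0.06 and -0.13 ± 0.06 (adjusted p of 0.857 or more). Females of slide 3 at 1000 ppm (n = 3 and 2) differed by -0.03 ± 0.06, 0.04 ± 0.08, -0.11 ± 0.08 and -0.08 ± 0.08 (adjusted p = 0.987), and at 1500 ppm by 0.06 ± 0.11, 0.04 ± 0.09, -0.18 ± 0.10 and -0.13 ± 0.11 (adjusted p of 0.513 or more). No within-slide comparison of 1500 ppm with control exists, save through slide 2, where the control rats are female and the 1500 ppm rats male.

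The second question was whether males and females differed. Over all doses miR-181a was lower in males by 0.21 ± 0.06 (log2 difference male minus female -0.21, SE, n = 12 and 12; adjusted p = 0.013) and miR-181b by 0.34 ± 0.09 (-0.34; adjusted p = 0.004), while miR-181c and miR-181d differed by -0.00 ± 0.05 and -0.03 ± 0.05 (adjusted p = 0.980 and 0.643). Of the 283 miRNAs tested, 124 passed in this comparison, 43.8%, so 2 of 4 members is close to the background. Quantile normalization, or a percentile over all probes, left 1 of 4 past the threshold, where 110 and 83 of the 283 miRNAs passed. Normexp background correction, the total gene signal of the scanner software and the unscaled series table each left 0, where 5, 96 and 52 passed. Relative to the median of all miRNAs, which was -0.07 in the scaled values and 0.07 with total gene signal, miR-181a stood at -0.14 and -0.18 and miR-181b at -0.27 and -0.29. With normexp, where that median was -0.24, they stood at 0.07 and -0.13. With slide as a block, 3.53% of miRNAs passed and 0 of the 4 members did. The estimates were then -0.07 ± 0.11 and -0.09 ± 0.11 for miR-181a and miR-181b (adjusted p = 0.716 and 0.707). On slide 2, the one slide with both sexes, males minus females (n = 4 and 4) gave -0.00 ± 0.08 for miR-181a, -0.07 ± 0.06 for miR-181b, -0.01 ± 0.10 for miR-181c and -0.04 ± 0.09 for miR-181d (adjusted p of 0.589 or more), where 7.07% of miRNAs passed. All 4 females on slide 2 were control or 600 ppm rats and all 4 males 1000 or 1500 ppm rats, so sex and dose cannot be told apart there.

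Slides could be compared within a sex. Males of slide 2 against males of slide 1 (n = 4 and 8) differed by 0.40 ± 0.07 for miR-181a (adjusted p = 0.000516) and by 0.57 ± 0.07 for miR-181b (adjusted p = 2.97e-05), without overlap of the 2 sets. miR-181c and miR-181d differed by 0.07 ± 0.05 and 0.08 ± 0.05 (adjusted p = 0.260 and 0.244), and their ranges overlapped. In this comparison 51.2% of all miRNAs passed. Of the 4 males on slide 2, 3 were at 1500 ppm, and male 13 at 1000 ppm was the only one with group mates on slide 1. Male 13 stood 0.33 above the mean of its 2 group mates for miR-181a, 0.53 above for miR-181b, 0.10 above for miR-181c and 0.13 above for miR-181d. Female 26 at 600 ppm, on slide 2, stood above the mean of its group mates on slide 3 by 0.20 for miR-181a, 0.13 for miR-181b, 0.21 for miR-181c and 0.15 for miR-181d. Females of slide 3 against females of slide 2 (n = 8 and 4) differed by -0.09 ± 0.06, -0.17 ± 0.05, -0.09 ± 0.09 and -0.10 ± 0.09 for miR-181a to miR-181d (adjusted p = 0.355, 0.0877, 0.546 and 0.511), where 4.95% of miRNAs passed. As a share of the variance over the 24 arrays, slide taken alone accounted for 75% for miR-181a and 87.4% for miR-181b, but 11.1% for miR-181c and 12.8% for miR-181d. The median over all tested miRNAs was 37.6%. Sex taken alone accounted for 27.7% for miR-181a and 36.8% for miR-181b, and dose group for 23.4% and 14.6%. Slide ran with sex and dose, so these shares overlap and cannot be told apart.

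The third question was whether dose acted differently in the sexes. The interaction of dose and sex passed for miR-181b (F = 7.40, adjusted p = 0.017), and not for miR-181a (F = 3.82, adjusted p = 0.080), miR-181c (F = 2.98, adjusted p = 0.135) or miR-181d (F = 1.54, adjusted p = 0.349). Of all miRNAs, 25.1% passed, so 1 of 4 members is close to the background. Without male 18 of the 1500 ppm group, miR-181b had F = 5.59 (adjusted p = 0.053) and 0 of 4 members passed. miR-181a passed as well without male 8 (F = 4.65, adjusted p = 0.049), male 13 (F = 5.24, adjusted p = 0.032) or female 38 (F = 5.34, adjusted p = 0.046). At 1500 ppm against control, males were 0.46 ± 0.11 higher for miR-181a (adjusted p = 0.002) and 0.62 ± 0.12 higher for miR-181b (adjusted p = 0.001), whereas the unscaled series table gave -0.22 and -0.09 in the same order, with the median of all miRNAs at -0.66. Relative to that median, the series table placed miR-181a at 0.44 and miR-181b at 0.56, against 0.42 and 0.58 in the scaled values. With normexp neither male call held, at 0.44 for miR-181a (adjusted p = 0.052) and 0.49 for miR-181b (adjusted p = 0.721). In males miR-181c and miR-181d differed by 0.05 ± 0.08 and 0.04 ± 0.09 (adjusted p = 0.688 and 0.807). The background for males was 36% of miRNAs. In females the estimates were -0.01 ± 0.11, -0.18 ± 0.12, -0.08 ± 0.08 and -0.10 ± 0.09 for miR-181a to miR-181d, and 0 members and 0% of miRNAs passed. The change from control to 1500 ppm was larger in males than in females by 0.47 ± 0.15 for miR-181a (adjusted p = 0.021) and 0.80 ± 0.17 for miR-181b (adjusted p = 0.004), in a comparison where 35.3% of miRNAs passed. Without male 18 or female 36 of the 1500 ppm group, the difference for miR-181a was 0.39 (adjusted p = 0.065) or 0.40 (adjusted p = 0.058). That call of miR-181a was also lost with quantile normalization (0.33, adjusted p = 0.105), without the filter on dim probes (adjusted p = 0.058) and with normexp, another background correction (adjusted p = 0.207), under which miR-181b did not pass either (adjusted p = 0.840).

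All 3 control males were on slide 1 and all 3 males at 1500 ppm on slide 2. With slide as a block the male estimates at 1500 ppm became 0.13 ± 0.16 for miR-181a and 0.09 ± 0.17 for miR-181b (adjusted p = 1.000 for both), and 0 of 283 miRNAs, 0%, passed for either the males or the interaction. In the fit with the block the link between the slides for males rests on male 13. Dose and slide cannot be told apart for control males against males at 1500 ppm. The same holds for females, as all control females were on slide 2 and all females at 1500 ppm on slide 3. The interaction at 1500 ppm takes in both. With the block the female estimates at 1500 ppm became 0.20 ± 0.16, -0.05 ± 0.17, 0.13 ± 0.14 and 0.05 ± 0.17 for miR-181a to miR-181d (adjusted p of 0.839 or more). For females the link between the slides rests on female 26.

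**Figure D2:**
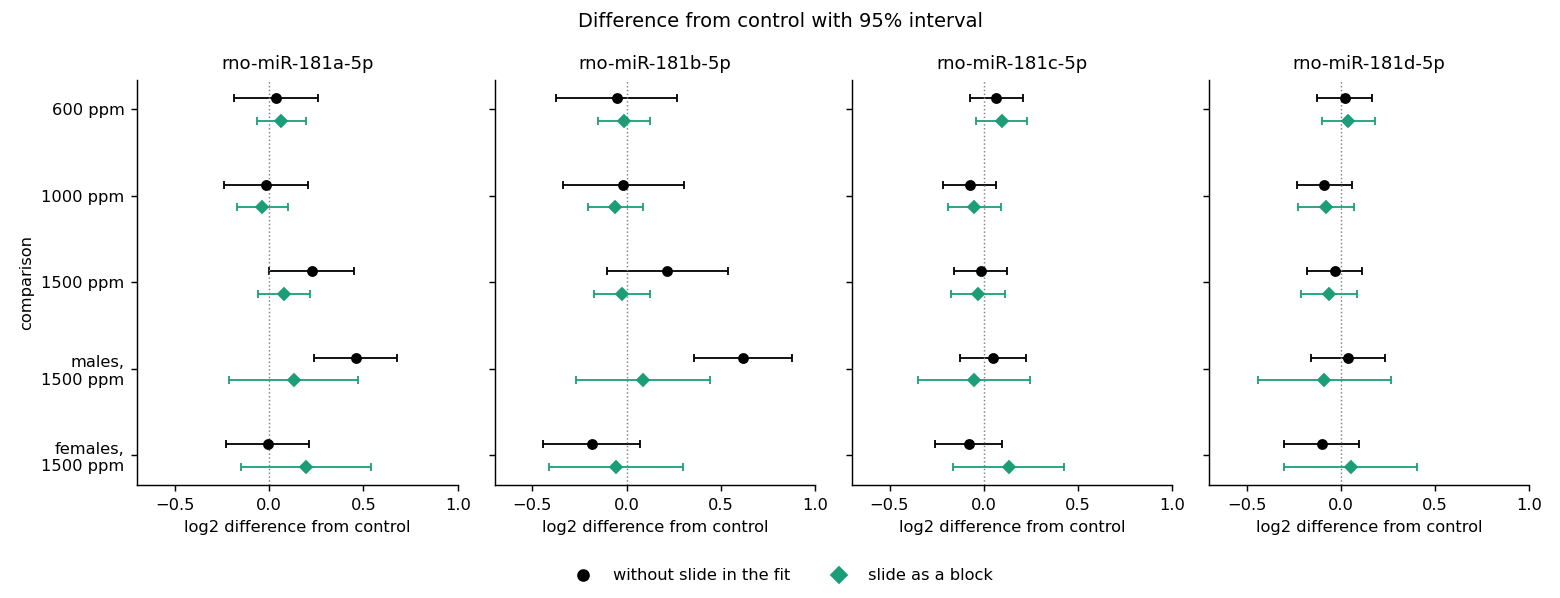
Log2 difference from control (x axis) for each member in each comparison (y axis), with 95% intervals from limma, without slide in the fit (black circles) and with slide as a block (green diamonds). For miR-181a and miR-181b in males at 1500 ppm the estimates of 0.46 and 0.62 became 0.13 and 0.09 with the block, and their intervals then spanned 0; those of miR-181c and miR-181d spanned 0 in both fits.

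Both probes of miR-181b gave the same picture, with male minus female differences of -0.35 and -0.33 and male differences of 0.62 and 0.62 at 1500 ppm. The probes of miR-181a differed in size but not in direction. The dimmer probe (mean log2 level 10.06) gave -0.13 between the sexes and 0.28 for males at 1500 ppm, and the brighter (10.73) gave -0.29 and 0.63. Over the 24 arrays the 2 probes of a member correlated at r = 0.89 for miR-181a, 0.99 for miR-181b, 0.97 for miR-181c and 0.83 for miR-181d, as a description of probes that share the same arrays.

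How the members varied together was asked within slides, since the levels of miR-181a and miR-181b both differed between slides, which ran with sex and dose. Each of the 6 pairs was correlated over the 8 rats of each slide, 18 relations in all, with exact two-sided permutation p-values adjusted over the 18. The rats of a slide differed in dose, and on slide 2 also in sex, and the permutations ran across these groups. The part of dose and sex in these relations was not tested. miR-181c and miR-181d correlated on all 3 slides. On slide 1, r was 0.91 (exact p = 0.000744, adjusted 0.0064) and rho 0.93 (exact p = 0.00223, adjusted 0.040), and without the 2 rats farthest from the median r was 0.86. On slide 2, r was 0.91 (exact p = 0.00211, adjusted 0.0095) and rho 0.83 (exact p = 0.0154, adjusted 0.055), and without 2 rats r was 0.69. On slide 3, r was 0.96 (exact p = 0.00107, adjusted 0.0064) and rho 0.88 (exact p = 0.00724, adjusted 0.043), and without 2 rats r was 0.97.

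miR-181a and miR-181b correlated on slide 1, where r was 0.96 (exact p = 0.000893, adjusted 0.0064) and rho 0.88 (exact p = 0.00724, adjusted 0.043), with r at 0.86 without the 2 farthest rats. On slide 2 r was 0.42 (exact p = 0.306, adjusted 0.537) and rho 0.50 (exact p = 0.216, adjusted 0.401). On slide 3 r was 0.70 (exact p = 0.0413, adjusted 0.145) and rho 0.52 (exact p = 0.197, adjusted 0.401), and r fell to 0.21 without 2 rats, so this relation rests on those rats. Of the pairs across clusters, only miR-181a with miR-181c on slide 2 passed by rank (rho 0.86, exact p = 0.0107, adjusted 0.048), while its r of 0.72 did not (exact p = 0.0482, adjusted 0.145) and was 0.52 without 2 rats. The other relations between clusters had r between 0.01 and 0.59 and adjusted p of 0.208 or more by r or by rank.

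With each slide's mean taken off, r over the 24 arrays was 0.93 for miR-181c with miR-181d and 0.72 for miR-181a with miR-181b. It was 0.48 for miR-181a with miR-181c, 0.38 for miR-181a with miR-181d, 0.26 for miR-181b with miR-181d and 0.19 for miR-181b with miR-181c. The 2 highest values belonged to the pairs of genomic neighbors. The pair with 5 sequence differences stood at the top, and the pairs with 1 difference, miR-181a with miR-181c and miR-181b with miR-181d, stood at 0.48 and 0.26. These values describe arrays that share the scaling, the slides and the RNA of each rat.

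**Figure D3:**
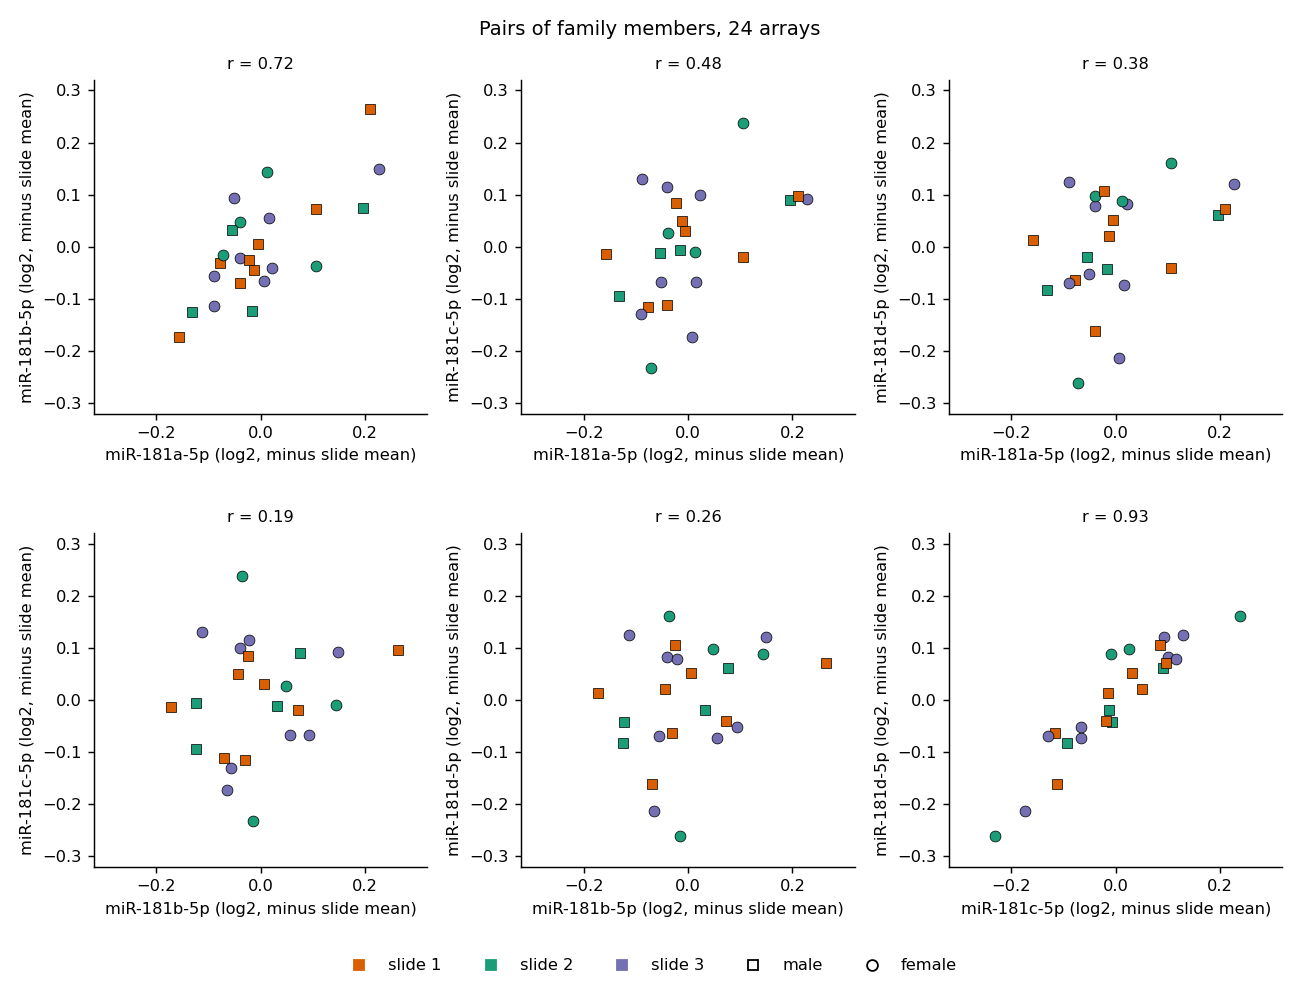
Levels of each pair of members over 24 arrays after the mean of each slide was taken off (both axes, log2), colored by slide and shaped by sex, with Pearson's r above each panel. The cluster mates miR-181c and miR-181d (r = 0.93) and miR-181a and miR-181b (r = 0.72) lie closest to a line.

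The same measure over all 282 other tested miRNAs placed cluster mates at or near the top. The miRNA most like miR-181a was rno-miR-181a-1-3p, the opposite arm of its own chr13 hairpin (r = 0.79), followed by miR-181b. The miRNA most like miR-181b was again rno-miR-181a-1-3p (r = 0.73), followed by miR-181a. For miR-181c the closest was miR-181d and for miR-181d the closest was miR-181c, whereas rno-miR-181a-1-3p stood at rank 109 for miR-181c (r = 0.19) and 118 for miR-181d (r = 0.14). Beyond the family loci, miR-181a was most like rno-miR-125a-5p (r = 0.71) and rno-let-7d-3p (r = 0.68), and miR-181b was most like rno-miR-328a-3p (r = 0.72) and rno-let-7d-3p (r = 0.70). miR-181c was most like rno-miR-130a-3p (r = 0.79), rno-miR-30c-2-3p (r = 0.76) and rno-miR-30a-3p (r = 0.72). miR-181d was most like rno-miR-130a-3p (r = 0.69), rno-miR-30a-3p (r = 0.65) and rno-miR-106b-5p (r = 0.65). Before the slide means were taken off, rno-let-7d-3p had r = -0.05 with miR-181a and -0.17 with miR-181b. In the same values rno-miR-125a-5p had r = 0.46 with miR-181a, and rno-miR-328a-3p had r = 0.90 with miR-181b. These are descriptions over 24 arrays, with no test.

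Of the 6 opposite (3p) arms of the family on the array, only rno-miR-181a-1-3p was above background, on all 24 arrays, and the other 5 were above it on 0 arrays. Its mature sequence is shown because it comes from the same hairpin as miR-181a, with its own seed in capitals.
rno-miR-181a-1-3p: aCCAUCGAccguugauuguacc

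It lies at chr13:52037121-52037142, and the table lists rno-miR-3570 at the same positions on the minus strand. Its lowest, median and highest levels were 4.99, 5.23 and 5.41 in controls and 5.27, 5.31 and 5.49 at 1500 ppm, with overlap. It differed from control by 0.02, -0.09 and 0.13 ± 0.08 at 600, 1000 and 1500 ppm (adjusted p = 0.996, 0.952 and 0.50). It was lower in males by 0.13 ± 0.05 (log2 difference -0.13, adjusted p = 0.028) and higher in males at 1500 ppm by 0.28 ± 0.08 (adjusted p = 0.011), and neither passed with slide as a block. Slide taken alone accounted for 49.4% of its variance, sex for 22.4% and dose group for 28.8%, and these shares overlap.

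Other miRNAs of the family's known settings gave 0 calls at each dose as well. Of 12 regulators of vascular inflammation, 10 were on the array and tested. At 1500 ppm they ran from -0.43 for rno-miR-126a-5p, an endothelial miRNA (adjusted p = 0.50), to 0.27 for rno-miR-31a-5p, which targets the adhesion molecule E-selectin (adjusted p = 0.587), with a median of -0.04 against 0.00 over all miRNAs. Of 9 miRNAs of lymphocytes, 8 were on the array and tested. At 1500 ppm they ran from -0.22 for rno-miR-142-5p, a miRNA of blood-forming cells (adjusted p = 0.50), to 0.20 for rno-miR-92a-3p, of the miR-17 to miR-92 cluster (adjusted p = 0.613), with a median of 0.03. The lists share rno-miR-146a-5p and rno-miR-92a-3p, and rno-miR-155-5p of both lists was not among the array's names.

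In males at 1500 ppm, where 36% of all miRNAs passed, 2 of the 10 vascular miRNAs were higher and 3 lower, from -1.01 for rno-miR-126a-5p to 0.56 for rno-miR-92a-3p, which limits growth of vessels. Of the 8 lymphocyte miRNAs 2 were higher and 1 lower. Between the sexes 2 of the 10 vascular miRNAs were higher in males and 2 lower, and 0 of the 8 lymphocyte miRNAs were higher and 4 lower, where 43.8% of all miRNAs passed. With slide as a block 0 members of either list passed in any of these comparisons.

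Markers of the cells that could carry the family varied over rats without a call at any dose. The summed scaled intensity of 3 lymphocyte markers (rno-miR-150-5p and both arms of miR-142) ran from 2897 to 4390 in controls, 2834 to 3495 at 600 ppm, 2705 to 4094 at 1000 ppm and 2625 to 4091 at 1500 ppm. That of both arms of miR-126a ran from 12210 to 16316, 13035 to 17342, 13005 to 14926 and 11890 to 15202 in the same order. That of the 5 epithelial markers ran from 3748 to 4089, 3902 to 4555, 3924 to 4533 and 3781 to 4492. The myeloid miRNA rno-miR-223-3p ran from 444 to 715, 363 to 627, 500 to 652 and 431 to 742.

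Of 3 red blood cell markers tested, rno-miR-144-5p was above background on 10 of 24 arrays and the others on all 24, and their sum ran from 1088 to 3163 in controls and from 1057 to 2429 at 1500 ppm. Of 7 miRNAs of heart and skeletal muscle 4 were tested, with rno-miR-206-3p, rno-miR-208a-3p and rno-miR-208b-3p above background on 0 arrays, and their sum ran from 175 to 410 in controls, 191 to 602 at 600 ppm, 213 to 1373 at 1000 ppm and 145 to 1205 at 1500 ppm. In males at 1500 ppm against control males, where miR-181a and miR-181b passed along with 36% of all miRNAs, 5 of the 18 markers tested passed. Lower were rno-miR-144-3p of red blood cells (-1.20, adjusted p = 0.002), rno-miR-126a-5p of endothelium (-1.01, adjusted p = 0.000491), rno-miR-499-5p of striated muscle (-0.60, adjusted p = 0.020) and rno-miR-142-5p of lymphocytes (-0.49, adjusted p = 0.009). Higher was rno-miR-429 of epithelium (0.36, adjusted p = 0.001). The other arms and mates did not all go with them, as rno-miR-144-5p differed by 0.05 (adjusted p = 0.825) and rno-miR-126a-3p by 0.01 (adjusted p = 0.948). The lymphocyte marker rno-miR-150-5p differed by 0.14 (adjusted p = 0.334). Of the 5 epithelial markers all 5 had estimates above 0 and only rno-miR-429 passed, with the lowest 0.01 for rno-miR-200a-3p (adjusted p = 0.863). None of these markers passed with slide as a block. The part of such cells in the levels of the family was not tested.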

How the data were processed

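The authors deposited 1 file per array from Agilent Feature Extraction 11.5.1.1. The scanner settings, per the file headers, were such that local background was subtracted from the Cy3 brightness and a spatial gradient removed to give the processed intensity, and the authors did not normalize these values between arrays. The deposited series table holds the total gene signal as an intensity per miRNA, unscaled, with 58.7% of its 17256 values set to 1, none of them a family member's. A procedure for these miRNA values is not given in the sources used here, so the one below was chosen.

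Here, arrays were brought to a common 75th percentile of 865, taken over 394 probes that stood well above background on each of the 24 arrays. A floor of 11.3 was set, log2 was taken, and spots were averaged to probes and probes to miRNAs. A probe was kept when well above background on at least 6 arrays, which left 555 of 1730 probes and 283 of 719 miRNAs. Arrays had 221 to 306 miRNAs above background. The number of arrays limits the precision.

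All 283 miRNAs were tested with limma 3.58.1 in R 4.3.3, with Benjamini-Hochberg adjustment over the 283 and a threshold of 0.05. Each dose was compared with control in 1 fit of 24 arrays without covariates. Sex was fitted with dose as a factor, and the interaction with dose and sex together. The limma procedure was tested on simulated data with known changes at 1500 ppm. Those data were drawn without slide or sex differences, so the test does not bear on fits where slide runs with sex and dose. Pairs of members were compared within slides by exact two-sided permutation tests. Named miRNAs were the 4 members, the 3 miRNAs most like each after slide means were removed, and the lowest and highest of each list at 1500 ppm; other names were chosen after their values were seen. Members, lists and tests were chosen with earlier results of these data known. The scanner header names build rn4, whereas sequences and positions come from RefSeq tables of GRCr8, matched by name. Alternatives changed the scaling, background correction, filter, floor, probe summary, samples, slide, sex and array weights.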

Additional observations from a re-analysis of the deposited data

Results flagged for a closer look

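Among controls, miR-181c in female 22 read 7.15 and stood apart from the other 5 rats, which had a mean of 7.37 ± 0.03 (SD), with a gap to the nearest that was 0.711 of the whole range, past the critical value of Dixon's test for 6 samples. It was 1 of 16 groups of 6 rats flagged in this way, and chance flags about 1 in 20.

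The interaction of dose and sex passed for miR-181b (F = 7.40), where 25.1% of all miRNAs passed. By the same F test it did not pass for miR-181a (adjusted p = 0.080), nor for miR-181b without male 18 (adjusted p = 0.053). At 1500 ppm the change from control was larger in males than in females by 0.47 for miR-181a and 0.80 for miR-181b on the log2 scale. In that comparison 35.3% of all miRNAs passed. With slide as a block the same values were F = 0.73, -0.07 and 0.14, and none of them passed. Slide and dose cannot be told apart in control males and males at 1500 ppm, nor in control females and females at 1500 ppm.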

How the results depend on the processing

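The counts of members past the threshold stayed at 0 in each dose comparison under all alternatives. Of the 283 miRNAs, 12 passed at 1500 ppm with array weights and 1 with the series table. The trend count rose from 0 to 2 with array weights, where 99 of the 283 miRNAs passed in the trend, against 0 in the main fit. That fit also called 181 by sex, and its weights did not settle. The trend count of members stayed at 0 with the lower floor, sex as a covariate and the series table, where 5, 3 and 1 of the 283 passed. The sex count was 2, where 124 of the 283 miRNAs passed. It became 1 with the percentile over all probes and with quantile normalization, where 83 and 110 passed. With normexp, total gene signal and the series table it was 0, where 5, 96 and 52 passed. It was also 0 with slide as a fixed or random block, where 10 and 0 passed. The interaction count was 1, where 71 of the 283 miRNAs passed. It became 2 with the percentile over all probes and with the brightest probe, where 91 and 102 passed. With array weights it was 3, where 129 passed. It was 0 with normexp and with slide as a fixed or random block, where 0 miRNAs passed. With the series table it was also 0, where 72 passed. Leaving out 1 rat gave interaction counts from 0 to 2 and changed no other count. The cause of these changes was not tested.

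Estimates changed sign in what follows, on the log2 scale. Before the change, only those of miR-181a and miR-181b in males at 1500 ppm and in the interaction there had passed, and after it only those of miR-181c and miR-181d in the same comparisons of the series table did. Slide as a block turned miR-181b to -0.025 at 1500 ppm and -0.024 in the trend per 1000 ppm. Under that block miR-181c and miR-181d became 0.10 and 0.074 by sex, -0.051 and -0.089 in males at 1500 ppm, and -0.18 and -0.14 in the interaction at 1500 ppm, where miR-181a became -0.067. Slide as a random block gave miR-181c and miR-181d 0.048 and 0.022 by sex, -0.022 and -0.036 in males, and -0.043 and -0.015 in the interaction. In the series table miR-181a and miR-181b became 0.049 and 0.051 at 1000 ppm, -0.030 and -0.050 at 1500 ppm, -0.0044 and -0.0036 in the trend, -0.22 and -0.092 in males, and -0.37 and -0.085 in the interaction. There miR-181a and miR-181d became -0.032 and -0.040 at 600 ppm, and miR-181c and miR-181d 0.21 and 0.19 by sex, -0.66 and -0.67 in males, and -0.75 and -0.75 in the interaction. The median of all miRNAs in that unscaled table was -0.66 in males and -0.75 in the interaction. Relative to it, miR-181c and miR-181d stood at -0.0041 and -0.019 in males and at -0.0076 and 0 in the interaction. The percentile over all probes gave miR-181a and miR-181b 0.010 and 0.0095 at 1000 ppm, and miR-181c and miR-181d 0.039 and 0.023 at 1500 ppm, 0.0067 and 0.00093 in the trend, and 0.039 and 0.011 by sex. Quantile normalization gave -0.016 for miR-181a and -0.011 for miR-181d at 600 ppm, and 0.082 and 0.053 for miR-181c and miR-181d by sex. Normexp gave -0.020 and 0.17 for miR-181a and miR-181b at 600 ppm and 0.0028 for miR-181d at 1500 ppm. Array weights gave 0.046 for miR-181b at 600 ppm, 0.089 and 0.14 for miR-181a and miR-181b at 1000 ppm, and 0.0070 for miR-181c at 1500 ppm. The brightest probe gave 0.0017 and 0.00095 for miR-181c and miR-181d by sex. Total gene signal gave them 0.11 and 0.095 by sex and -0.0050 and -0.019 in males.

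Leaving out 1 rat gave ranges that crossed 0 for uncalled estimates. At 600 ppm these ran over -0.025 to 0.11 for miR-181a, -0.13 to 0.035 for miR-181b and -0.027 to 0.045 for miR-181d. At 1000 ppm they ran over -0.057 to 0.031 for miR-181a and -0.090 to 0.068 for miR-181b, and at 1500 ppm over -0.053 to 0.022 for miR-181c and -0.079 to 0.012 for miR-181d. By sex miR-181c ran over -0.021 to 0.022. The interaction F ran from 2.41 to 5.34 for miR-181a and from 5.59 to 14.0 for miR-181b, and the interaction of miR-181a at 1500 ppm from 0.39 to 0.56.

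Scalings moved the median of all miRNAs by over 0.1 in these comparisons. The percentile over all probes moved it by 0.14 in males at 1500 ppm and by 0.22 in the interaction there. Normexp moved it by 0.29 at 600 ppm, by -0.18 by sex and by 0.18 in the interaction. Total gene signal moved it by 0.13 by sex, and the series table by -0.27 at 1500 ppm, 0.22 by sex, -0.70 in males and -0.82 in the interaction. No paired analysis was possible because the groups share no animal numbers.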
